A study of Homo sapiens with 12 samples.

Results

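The tumour necrosis factor (TNF) superfamily was examined in RNA sequencing of 3 established human cancer cell lines. The genes described are the 43 of 57500 genes in the count table whose symbol is a numbered TNFRSF receptor or TNFSF ligand, or one of EDAR, EDARADD, EDA2R, NGFR, LTBR, CD27, CD40, CD70, FASLG, LTA and LTB. By role they comprise 7 death-domain receptors, 16 receptors that bind TRAF proteins, 4 decoy or soluble receptors, 15 ligands and 1 adaptor. The 12 libraries of total RNA, depleted of ribosomal RNA, form 4 groups of 3. SW480 and SW620 are colorectal lines that came from the primary tumour and a later lymph node metastasis of the same patient, and both were untreated in DMEM. PEO4 is an ovarian cancer line, kept in RPMI medium either without additions (control) or with recombinant human TGF-β at 10 ng/mL for 6 days. Every culture had fetal bovine serum and penicillin with streptomycin, and the labels name no genetic change made to any line. Replicates are called biological in the labels, which do not say how cultures were kept apart. The p-values therefore measure the spread between libraries of 1 line and not between patients.

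TNF superfamily ligands are mostly trimeric membrane proteins, some of them shed by proteases, that cluster receptors on the cell surface. Receptors with a death domain can recruit caspases or, through adaptors and TRAF proteins, switch on NF-κB and kinase cascades, while TRAF-binding receptors without a death domain mainly drive NF-κB and survival or co-stimulation. Decoy and soluble receptors bind ligands and signal little or not at all. In epithelium the best known branches are TNF, TRAIL and lymphotoxin signalling, and the ectodysplasin branch, in which the ligand EDA binds EDAR and EDAR signals through the adaptor EDARADD.

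Library totals ran from 14531420 to 22028956 gene-assigned counts. The floor of detection in a library was taken as 3 counts, which correspond to 0.134 to 0.193 CPM. CPM are counts scaled to a common total, with totals adjusted by TMM factors. Summed marker levels, the limit of 20 CPM and the share of the PEO4 level used totals without TMM factors. Intestinal line markers (3 genes) summed to 36.9 to 65.8 CPM in SW480, 242 to 278 in SW620 and at most 2.35 in PEO4, and ovarian markers (3 genes) to at least 2170 CPM in PEO4 and at most 118 in the SW libraries. Many superfamily genes are best known in leukocytes, and summed leukocyte markers (10 genes) were at 3.25 to 4.69 CPM in SW480, 2.38 to 8.81 in SW620 and 5.64 to 7.26 in PEO4. PTPRC, which all leukocytes carry, had 1, 1 and 0 counts in SW480 and 4, 50 and 108 in SW620, and MS4A1 had none in SW480. Summed fibroblast markers (4 genes, of which 2 exceeded 3 counts in an SW480 library and 4 in an SW620 library) were at 2.19 to 2.44 CPM in SW480 and 8.43 to 13.9 in SW620. Summed endothelial markers (4 genes) were at 2.98 to 3.74 CPM in SW480 and 4.99 to 11.4 CPM in SW620. LUM, a fibroblast marker, was 26.2-fold higher (adjusted p = 9.48e-05) and PECAM1, an endothelial marker, 16.8-fold higher (adjusted p = 0.00128) in SW620. The other tested markers of these lists did not pass. PDGFRB had means of 1.96 CPM in SW480 and 2.76 in SW620 (adjusted p = 0.335), and VWF 2.74 and 3.16 (adjusted p = 0.659). PDGFRA, DCN, CDH5 and CLDN5 were not tested, with means of at most 0.556 CPM in either line. The higher sums in SW620 thus came mostly from LUM and PECAM1. The part of these low levels in the results was not tested, and in bulk RNA fewer cells of a type and less RNA per cell cannot be told apart. SW620 replicate 3 held counts of genes typical of PEO4. Over 18 genes at 20 CPM or more in every PEO4 library and at most 3 counts in each other SW library, it held 184 counts, or 1.28% of the PEO4 level. The rule fixes that these genes are low in the other 5 SW libraries, so the sum describes this library and is no test. The source of these counts was not tested.

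Transcript levels were compared between genes as TPM (transcript abundance, which is counts divided by exon length and scaled to a common sum). Of the 43 genes, 25 exceeded 3 counts in all 12 libraries and 3 (TNFSF11, TNFRSF13B and TNFRSF6B) had no count in any. All exon bases of TNFRSF6B, a secreted decoy of FAS ligand, are shared with the read-through gene RTEL1-TNFRSF6B, so its counts cannot be assigned. Between 24 and 25 genes per group had a mean of at least 1 TPM. TNFRSF12A, the receptor for TWEAK, was among the 5 highest in every group, at 165 ± 47.0 TPM in SW480, 69.1 ± 10.6 in SW620, 174 ± 32.1 in PEO4 control and 225 ± 17.3 with TGF-β (SD, n = 3). NGFR, the neurotrophin receptor, was the highest in SW480 at 511 ± 133 TPM, followed by TNFRSF12A, TNFRSF1B at 113 ± 25.0, EDAR at 96.4 ± 10.7 and TNFRSF21 at 77.3 ± 9.57. Taken as mean ± SD, neighbours in that order overlapped, except that NGFR stood above the rest. SW620 was led by TNFRSF18 at 71.1 ± 7.17 TPM, and the next 4 (TNFRSF12A, TNFRSF1B at 67.3 ± 8.37, TNFRSF10B at 64.3 ± 15.7 and LTBR at 57.9 ± 5.92) lay within the spread of their neighbours. In PEO4 control TNFRSF12A stood above LTBR at 83.0 ± 9.46, TNFRSF1A at 75.7 ± 2.89, TNFRSF10B at 72.4 ± 8.67 and the ligand CD70 at 57.2 ± 9.19, which was the 1 ligand among the 5 highest of any group. The same 5 genes led PEO4 with TGF-β.

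**Figure D1:**
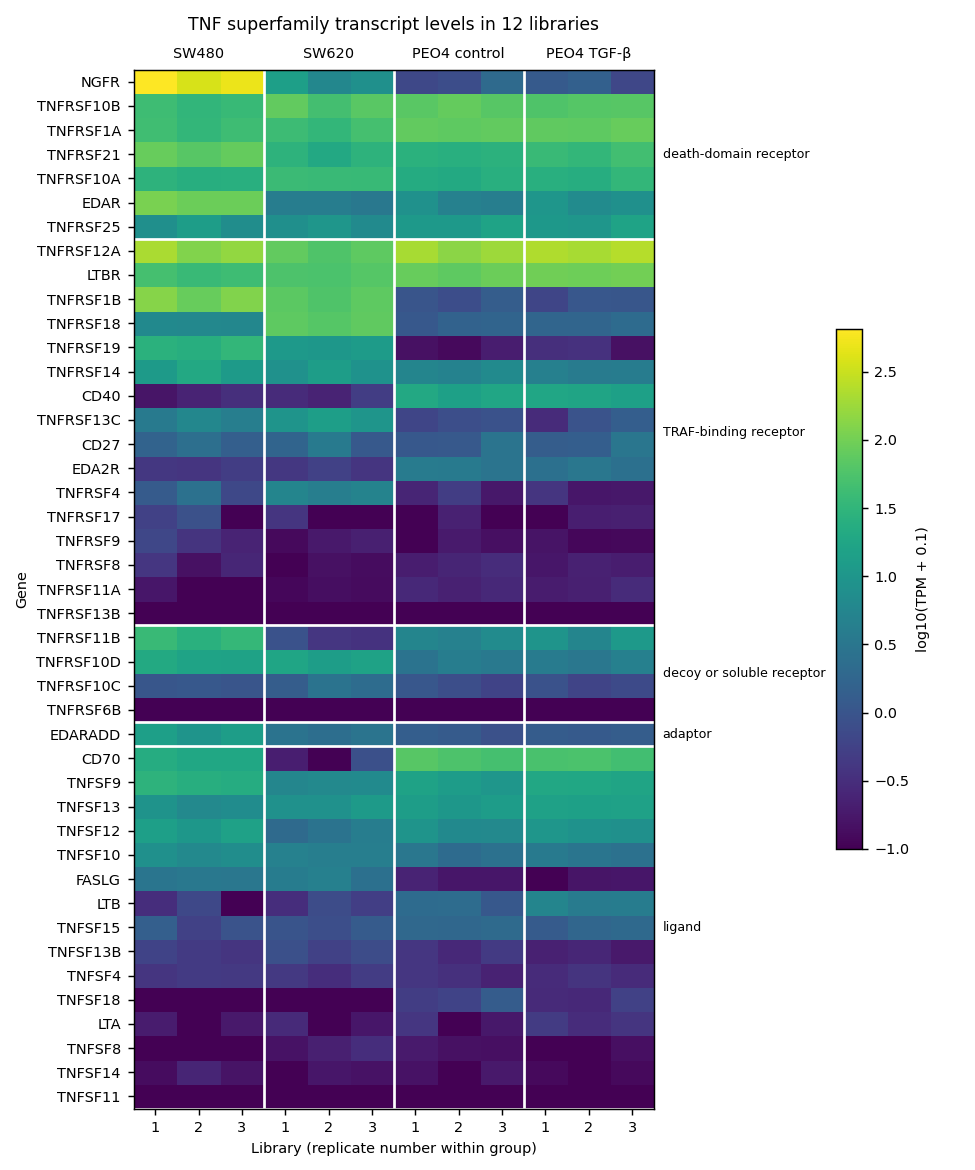
Heat map of transcript levels, as log10(TPM + 0.1), of the 43 genes (rows, ordered by role) in the 12 libraries (columns, by group). NGFR, EDAR and TNFRSF11B are high in the 3 SW480 libraries and low in the 3 SW620 libraries, whereas CD40 and CD70 are high in the 6 PEO4 libraries.

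The comparison of SW620 with SW480 sets a line from a metastasis beside a line from the primary tumour of the same patient. SW620 had far less RNA of EDAR, NGFR, the soluble receptor TNFRSF11B and the ligand CD70, and far more of TNFRSF18. Enough counts for a test were present for 27 of the 43 genes. By edgeR's quasi-likelihood test, with an adjusted p of 0.05 as the limit, 17 of them (63.0%) differed between the lines, with 5 higher and 12 lower in SW620. Among all 20941 genes tested 30.5% passed, 13.5% higher and 17.0% lower. The median log2 fold change of the 27 genes was -0.23, beside 0.03 over all genes tested. Replicate values of the lines did not overlap for 19 of the 27, beside 44.2% of all genes tested. By role, 2 death-domain receptors were higher and 3 lower of 7 tested, 3 TRAF-binding receptors were higher and 3 lower of 9, 1 decoy or soluble receptor was lower of 3, 4 ligands were lower of 7, and the adaptor was lower. Refits without each library in turn kept 12 of the 17 calls. A gene tested because it is high in 1 line had to differ, so these counts describe the genes that passed the filter and not all 43.

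**Figure D2:**
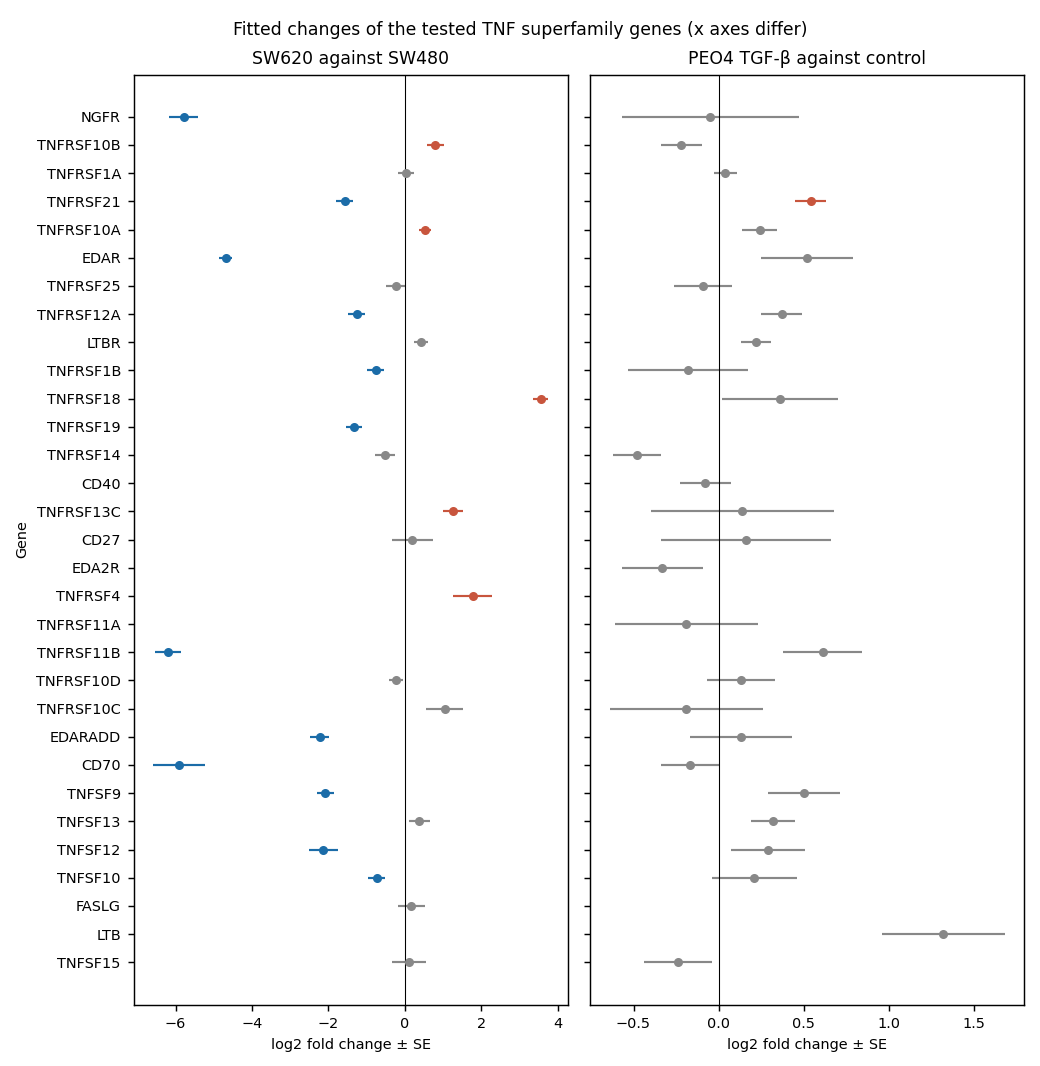
Fitted log2 fold changes with standard errors (horizontal axis) of every TNF superfamily gene tested in either comparison (vertical axis), for SW620 over SW480 (left) and PEO4 with TGF-β over control (right). Red points are higher and blue points lower past an adjusted p of 0.05, grey points are not past it. The left panel spans -6.19 to 3.55 with 17 coloured points, and the right panel has 1.

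In the ectodysplasin branch the ligand EDA, the receptor EDAR and the adaptor EDARADD were lower in SW620. EDAR, on chromosome 2 (chr2:108894471-108989372, minus strand, GRCh38), was at 164, 148 and 158 CPM in SW480 replicates 1 to 3 and at 5.93, 6.26 and 5.98 CPM in SW620. The 2 sets of libraries were tightly grouped and far apart, and the log2 fold change was -4.69 ± 0.17 (SE, adjusted p = 1.57e-06), a level 25.9-fold lower in SW620. EDARADD, the adaptor that binds the EDAR death domain, was at 19.0, 13.8 and 20.6 CPM in SW480 and 3.59, 3.16 and 4.59 CPM in SW620. All SW480 libraries were above all SW620 libraries (log2 fold change -2.23 ± 0.25, adjusted p = 0.000193). EDARADD shares 32.7% of its exon bases with the pseudogene ENO1P1 on the same strand, so part of its counts is uncertain. EDA, the ligand, does not match the naming pattern and was taken from a list of related genes. It was at 12.1, 8.77 and 10.4 CPM in SW480 and 1.69, 1.64 and 1.60 CPM in SW620 (log2 fold change -2.66 ± 0.26, adjusted p = 9.12e-05), again with no overlap. EDA2R, a TRAF-binding receptor of another EDA isoform, was at or below 0.566 CPM in the 6 libraries and was not tested.

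Among the other death-domain receptors NGFR fell most. NGFR (chr17:49495293-49515017, plus strand) was at 914, 592 and 825 CPM in SW480 and at 19.9, 8.26 and 13.9 CPM in SW620. The lowest SW480 library was far above the highest SW620 library, and the log2 fold change was -5.79 ± 0.38 (adjusted p = 1.01e-05). Exons of genes on the other strand cover 27.1% of NGFR, and strand use in counting is not given in the sources used here. TNFRSF21, known as death receptor 6, was at 103, 88.9 and 116 CPM in SW480 and 34.4, 25.1 and 42.9 CPM in SW620 (log2 fold change -1.58 ± 0.22, adjusted p = 0.000643). The lines did not overlap. FAS, the receptor of FAS ligand, which the naming pattern also leaves out, was at 19.0, 13.7 and 15 CPM in SW480 and 1.14, 1.64 and 1.5 CPM in SW620 (log2 fold change -3.48 ± 0.27, adjusted p = 2.32e-05).

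The death-domain receptors of TRAIL were higher in SW620. TNFRSF10B was at 73.0, 62.6 and 74.6 CPM in SW480 and 133, 84.7 and 145 CPM in SW620 (log2 fold change 0.79 ± 0.22, adjusted p = 0.0228). TNFRSF10A was at 29.2, 27.3 and 29.5 CPM in SW480 and 39.5, 38.8 and 45 CPM in SW620 (log2 fold change 0.52 ± 0.15, adjusted p = 0.0245). Each SW620 library was above each SW480 library for both genes, but these were small changes near the threshold. Without any of the SW480 libraries, or without SW620 replicate 1 or 3, neither call was kept, and the adjusted p reached 0.0974 for TNFRSF10B and 0.117 for TNFRSF10A. TNFRSF10A shares 16.6% of its exon bases with other genes. TNFRSF1A, the main receptor of TNF, and TNFRSF25 did not pass, with log2 fold changes of 0.03 ± 0.22 (adjusted p = 0.931) and -0.23 ± 0.27 (adjusted p = 0.57).

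TRAF-binding receptors moved in both directions. TNFRSF18, the co-stimulatory receptor GITR, was at 3.00, 3.03 and 3.06 CPM in SW480 and 33.8, 30.1 and 42.8 CPM in SW620. SW480 libraries were nearly equal and all SW620 libraries were far higher, with a log2 fold change of 3.55 ± 0.20 (adjusted p = 5.92e-06), which is 11.7-fold. TNFRSF4, the co-stimulatory receptor OX40, is the next gene on chromosome 1, 4635 bases away. It was at 0.666, 1.61 and 0.397 CPM in SW480 and 3.05, 2.49 and 3.56 CPM in SW620 (log2 fold change 1.77 ± 0.52, adjusted p = 0.0307). Its SW480 values were scattered. Leaving out SW480 replicate 1 or 3 or SW620 replicate 1 ended the TNFRSF4 call, with an adjusted p of up to 0.115, and without SW480 replicate 2 the log2 fold change was 2.48 (adjusted p = 0.0065). TNFRSF13C, the BAFF receptor best known from B cells, was at 4.61, 8.45 and 6.46 CPM in SW480 and 12.4, 18.6 and 15.6 CPM in SW620 (log2 fold change 1.26 ± 0.27, adjusted p = 0.00725). Neither line overlapped the other.

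Lower in SW620 were TNFRSF19, TNFRSF12A and TNFRSF1B. TNFRSF19, an orphan receptor also called TROY, was at 46.3, 46.6 and 67.1 CPM in SW480 and 19.6, 18.2 and 25.9 CPM in SW620 (log2 fold change -1.33 ± 0.21, adjusted p = 0.00153). TNFRSF12A was at 136, 84.7 and 115 CPM in SW480 and 47.8, 37.0 and 54.9 CPM in SW620 (log2 fold change -1.26 ± 0.22, adjusted p = 0.00248). Both genes separated the lines in every library. TNFRSF1B, the second receptor of TNF, was at 167, 118 and 184 CPM in SW480 and 88.3, 76.1 and 114 CPM in SW620. SW480 replicate 2 and SW620 replicate 3 nearly met, and the log2 fold change of -0.76 ± 0.22 (adjusted p = 0.031) was not past the threshold without SW480 replicate 1 or 3 or SW620 replicate 1 or 2 (adjusted p up to 0.158). LTBR, the lymphotoxin receptor, was at 104, 89.0 and 106 CPM in SW480 and 116, 118 and 166 CPM in SW620. These values did not overlap, but the log2 fold change of 0.42 ± 0.19 had an adjusted p of 0.132. TNFRSF14 and CD27 did not pass, and 7 of the 16 TRAF-binding receptors had too few counts in these lines to be tested.

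TNFRSF11B, or osteoprotegerin, a secreted receptor that captures RANK ligand and TRAIL, had the lowest fitted log2 fold change of the 27 tested genes with all libraries, while CD70 was lower still without SW620 replicate 3 (-8.30, beside -5.97 for TNFRSF11B). It was at 36.4, 27.8 and 38.4 CPM in SW480 and 0.762, 0.304 and 0.309 CPM in SW620, which are 14, 5 and 6 counts. The log2 fold change was -6.19 ± 0.34 (adjusted p = 5.29e-06), a level 73.2-fold lower in SW620. At the share of the PEO4 level given above for SW620 replicate 3, 35.9% of the 6 counts there would be reached. The membrane-bound TRAIL decoys TNFRSF10C (log2 fold change 1.04 ± 0.48, adjusted p = 0.141) and TNFRSF10D (-0.23 ± 0.18, adjusted p = 0.383) did not pass. TNFRSF10C had at most 31 counts in an SW library and shares 39.3% of its exon bases with other genes.

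Ligands that passed were all lower in SW620. CD70, the ligand of CD27, was at 11.9, 10.4 and 11.4 CPM in SW480 and 0.0544, 0 and 0.464 CPM in SW620, or 1, 0 and 9 counts. Its log2 fold change was -5.90 ± 0.68 (adjusted p = 0.000224). SW620 replicate 3 alone was above the floor of 3 counts, and the share of the PEO4 level given above for that library would reach 99.7% of its 9 CD70 counts. Without that library CD70 was at least 65.2-fold lower in SW620 (adjusted p = 6.54e-06), with the SW620 level set at the floor per library. TNFSF9, the ligand of TNFRSF9, lies 47255 bases from CD70 on chromosome 19. It was at 16.3, 15.3 and 15.1 CPM in SW480 and 3.05, 3.58 and 4.44 CPM in SW620 (log2 fold change -2.08 ± 0.22, adjusted p = 0.000156). TNFSF9 values in each line were close together and did not overlap.

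TNFSF12, which encodes TWEAK, the ligand of TNFRSF12A, fell together with its receptor. It was at 9.10, 7.16 and 11.3 CPM in SW480 and 1.25, 1.82 and 3.15 CPM in SW620 (log2 fold change -2.14 ± 0.38, adjusted p = 0.00246). TNFSF12 shares 33.2% and TNFSF13 55.5% of exon bases with other genes, including the read-through TNFSF12-TNFSF13. TNFSF13 (APRIL), next to it, had a log2 fold change of 0.38 ± 0.28 (adjusted p = 0.366). TNFSF10, which encodes TRAIL, was at 9.60, 8 and 9.91 CPM in SW480 and 5.44, 5.04 and 5.93 CPM in SW620. Its libraries did not overlap, and the log2 fold change of -0.74 ± 0.22 (adjusted p = 0.0333) lost its call without SW480 replicate 1 or 3 or SW620 replicate 1 or 2 (adjusted p up to 0.163). FASLG, at 1.89 to 2.98 CPM in these 6 libraries, and TNFSF15 did not pass (adjusted p = 0.765 and 0.896).

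**Figure D3:**
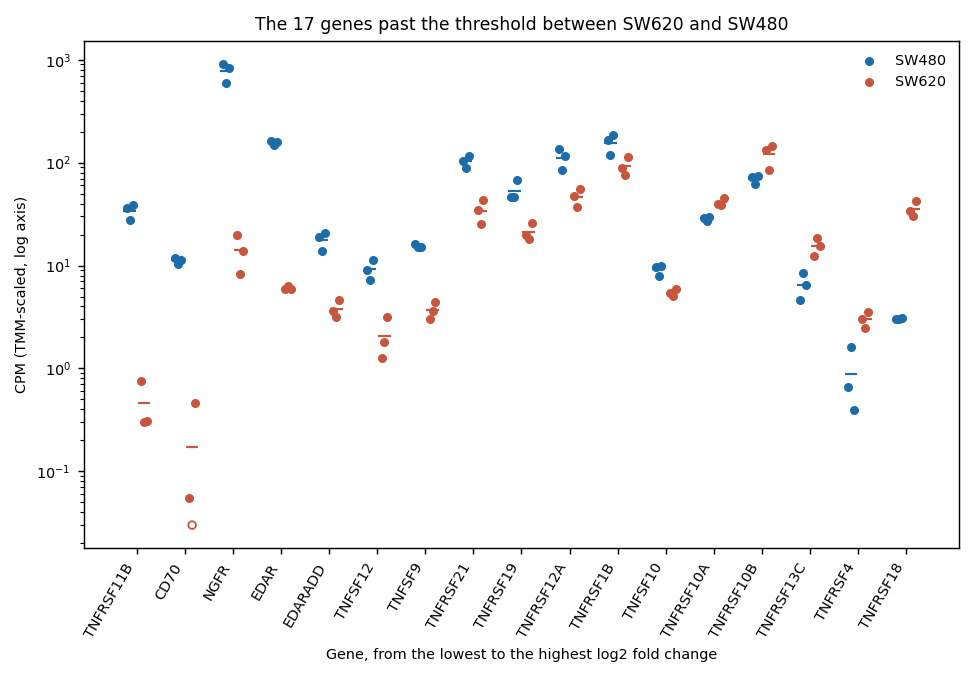
CPM on a log axis (vertical) in each SW480 (blue) and SW620 (red) library for the 17 genes past the threshold, ordered by log2 fold change (horizontal). Points are libraries, bars are means of 3, and the open circle is the SW620 library with 0 CD70 counts, drawn at 0.03 CPM. The libraries of the lines are separate for all 17 genes, most widely for TNFRSF11B, CD70, NGFR and EDAR at the left and TNFRSF18 at the right.

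Promoter sequence is shown for 4 of these genes to give an example of a TRAF-binding receptor, the adaptor, a death-domain receptor and a ligand. Of the 43 genes, 28 had 38 promoters in a RefSeq table (GRCh38.p14). Each sequence is the 250 bases before an annotated start, read 5′ to 3′ on the strand of the gene, at chr1:1206593-1206842 (minus) for TNFRSF18, chr1:236348009-236348258 (plus, the first of several starts) for EDARADD, chr6:47309906-47310155 (minus) for TNFRSF21 and chr19:6530776-6531025 (plus) for TNFSF9.
TNFRSF18: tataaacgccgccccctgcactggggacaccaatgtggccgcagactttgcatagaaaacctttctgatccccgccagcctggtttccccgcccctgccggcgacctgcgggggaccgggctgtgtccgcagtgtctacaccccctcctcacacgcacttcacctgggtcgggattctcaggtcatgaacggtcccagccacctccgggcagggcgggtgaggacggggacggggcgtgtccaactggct
EDARADD: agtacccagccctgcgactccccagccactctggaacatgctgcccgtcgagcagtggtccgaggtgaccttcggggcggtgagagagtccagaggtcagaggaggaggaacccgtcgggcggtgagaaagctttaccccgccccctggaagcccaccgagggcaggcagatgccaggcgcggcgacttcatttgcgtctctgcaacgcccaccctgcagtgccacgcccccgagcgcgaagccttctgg
TNFRSF21: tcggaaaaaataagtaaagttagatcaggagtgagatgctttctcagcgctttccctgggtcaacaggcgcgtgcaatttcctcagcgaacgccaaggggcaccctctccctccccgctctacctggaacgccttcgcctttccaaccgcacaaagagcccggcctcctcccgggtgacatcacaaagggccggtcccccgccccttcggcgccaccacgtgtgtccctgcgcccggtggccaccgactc
TNFSF9: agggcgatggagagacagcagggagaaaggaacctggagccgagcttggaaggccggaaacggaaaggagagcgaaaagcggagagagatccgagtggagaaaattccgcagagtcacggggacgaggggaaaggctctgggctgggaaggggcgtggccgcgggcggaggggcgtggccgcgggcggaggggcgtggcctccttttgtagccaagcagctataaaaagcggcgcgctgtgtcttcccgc
Both strands were searched for an NF-κB consensus of 10 letters, AP-1 (TGANTCA), TCF/LEF (CTTTGAT) and SMAD (CAGACA) letters, with matches in capitals. These 4 windows hold no match to any of the 4 motifs, which says only that those letters are not in these windows. The NF-κB consensus was found in 10 of the 38 promoters (26.3%) and in 6.9% of all 35116 promoters of the table. AP-1 letters were in 6 (15.8%, beside 6.6%), TCF/LEF letters in 1 (2.6%, beside 2.3%) and SMAD letters in 4 (10.5%, beside 13.6%). Promoters of the same gene can overlap, and then the same match was counted more than once. This was so for LTB and TNFSF14 with NF-κB, TNFSF14 with AP-1 and TNFSF13B with SMAD letters. The shares are therefore not of separate sequences. A match is a description of sequence and not a site.

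Related and downstream genes, called downstream genes for short further below, also changed in both directions between the lines. Of 78 genes on 6 lists (related ligands and receptors, adaptors and kinases, death execution, NF-κB subunits and regulators, NF-κB response genes, and ligand processing), 71 were tested and 28 (39.4%) passed, 12 higher and 16 lower in SW620, beside 30.5% of all genes tested (13.5% higher and 17.0% lower). Their median log2 fold change was 0.05. The count was 18 without SW480 replicate 1 and likewise 18 without SW620 replicate 1. Of 24 adaptors and kinases tested, 6 were higher and 3 lower. TRAF5, which binds several TRAF-binding receptors, rose most, from 16, 18.6 and 14 CPM in SW480 to 219, 240 and 181 CPM in SW620 (log2 fold change 3.72 ± 0.20, adjusted p = 4.9e-06). RBCK1, a subunit of the linear ubiquitin ligase, had a log2 fold change of 1.07 ± 0.19 (adjusted p = 0.00255), and CRADD, MAP3K5, TRADD and TAB1 were also higher. Lower were TRAF1 (-1.02), MAP3K14, the kinase of the non-canonical NF-κB pathway (-0.94), and TRAF2 (-0.63). TRADD lost its call without SW480 replicate 1 or 2, TRAF1 without SW480 replicate 1 or 2 or SW620 replicate 1, and MAP3K14 without SW480 replicate 1 or SW620 replicate 1 (adjusted p up to 0.0751, 0.0649 and 0.118). TRAF2 and TAB1 lost theirs without any library other than SW620 replicate 2 (up to 0.171 and 0.18).

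In the death execution list and in that of NF-κB subunits and regulators 33.3% passed, near the 30.5% of all genes tested, so the genes named are single results. MLKL, the executor of necroptosis, was at 7.05, 7.35 and 5.78 CPM in SW480 and 30.0, 36.6 and 38.2 CPM in SW620 (log2 fold change 2.38 ± 0.19, adjusted p = 2.7e-05), and was the 1 of 9 death execution genes that rose. The initiator caspase genes CASP10 (-2.80 ± 0.69, adjusted p = 0.014) and CASP8 (-0.58 ± 0.17, adjusted p = 0.0288) fell. CASP10 was not past the threshold without SW480 replicate 1 (adjusted p = 0.052), and its log2 fold change was -3.49 without SW620 replicate 2. CASP8 lost its call without any library other than SW620 replicate 2 (adjusted p up to 0.133). Of 15 NF-κB subunits and regulators, 4 fell and 1 rose. RELB fell by 1.65 ± 0.23 and NFKB2, its usual partner gene in the non-canonical pathway, by 1.52 ± 0.25 on the log2 scale (adjusted p = 0.000779 and 0.00173). BCL3 (-1.30) and TNIP1 (-0.65) also fell and CHUK (0.55) rose, each near the threshold. BCL3 lost its call without SW480 replicate 1 or 3 or SW620 replicate 1 or 2, TNIP1 without any library other than SW620 replicate 3, and CHUK without any other than SW620 replicate 2 (adjusted p up to 0.157, 0.203 and 0.14).

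Of 15 NF-κB response genes tested, 4 rose and 3 fell (46.7%, beside 30.5% of all genes tested). CCL20, on the same list, was not tested. It had no count in SW480 and was at least 8.21-fold higher in SW620, with the SW480 level set at the floor. Those higher in SW620 were CXCL8, CXCL3, CXCL2 and TNFAIP3. TNFAIP3, which encodes the feedback inhibitor A20, was at 2.11, 3.87 and 1.87 CPM in SW480 and 10.4, 13.9 and 16.2 CPM in SW620 (log2 fold change 2.37 ± 0.33, adjusted p = 0.000745). CXCL8 was at 0.388, 0.387 and 0.397 CPM in SW480 and 9.69, 2.43 and 5.21 CPM in SW620 (3.86 ± 0.57, adjusted p = 0.000926). CXCL2 (1.33, adjusted p = 0.0474) lost its call without any library other than SW620 replicate 2. ICAM1, an adhesion molecule, was at 40.5, 22.4 and 35.6 CPM in SW480 and 3.48, 4.25 and 4.85 CPM in SW620 (-2.97 ± 0.26, adjusted p = 5.25e-05). TNFAIP2 fell from 78.8, 46.6 and 77.9 CPM to 2.67, 2.85 and 11.1 CPM (-3.60 ± 0.53, adjusted p = 0.000945), where the highest SW620 value is from replicate 3, the library with counts of PEO4-typical genes. Without it the TNFAIP2 log2 fold change was -4.63. CSF1 also fell (-2.10). In ligand processing ADAM17, the sheddase of TNF, fell by 0.78 ± 0.16 and FURIN by 1.05 ± 0.23 on the log2 scale (adjusted p = 0.00471 and 0.00794), the latter not past the threshold without SW620 replicate 1 (adjusted p = 0.0687).

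**Figure D4:**
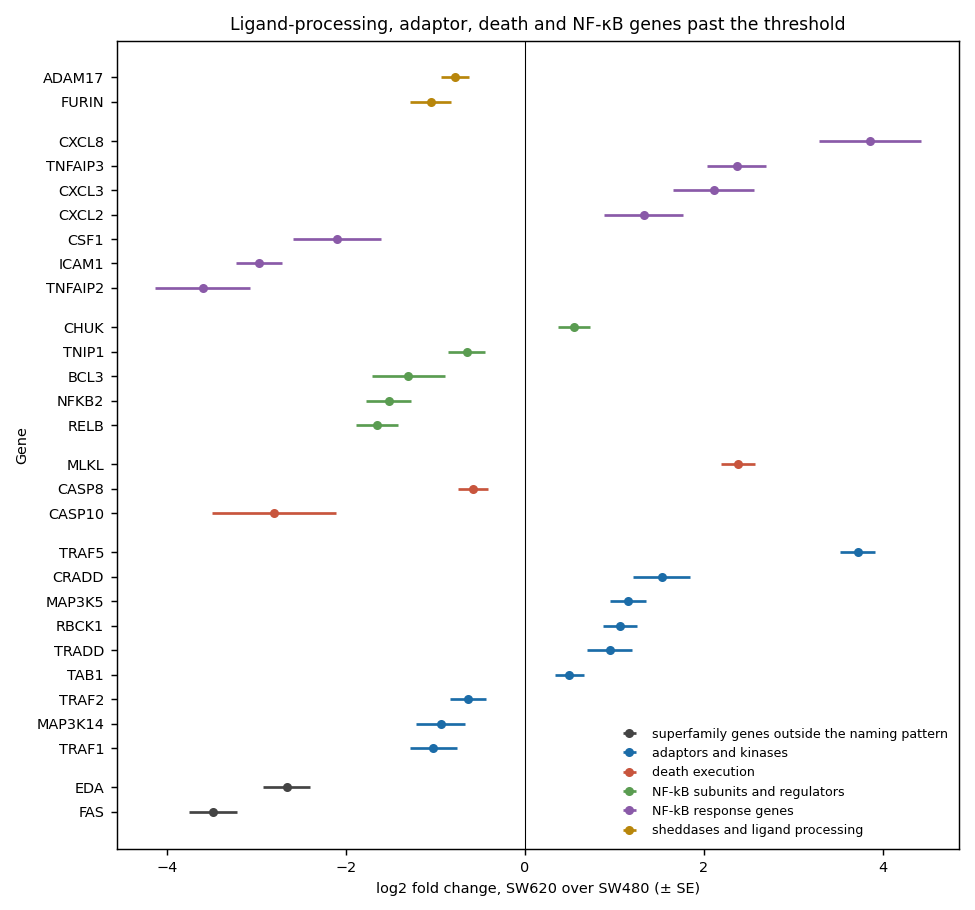
Fitted log2 fold changes of SW620 over SW480 with standard errors (horizontal axis) for the 28 genes past the threshold on 6 lists of related and downstream genes (vertical axis, coloured by list). They range from TNFAIP2 at -3.60 and FAS at -3.48 to TRAF5 at 3.72 and CXCL8 at 3.86.

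In PEO4 the treated and control libraries show how the same genes stood after 6 days of TGF-β. TNFRSF21 was the 1 of 28 tested genes (3.57%) that passed, and it was higher with TGF-β. Of all 19064 genes tested in PEO4, 2.26% passed, 1.27% higher and 0.991% lower. The median log2 fold change of the 28 genes was 0.14, beside -0.02 over all genes tested, and 9 of them (32.1%) had an unadjusted p under 0.05, beside 16.7% of all genes tested. TNFRSF21 was at 37.9, 35.8 and 36.0 CPM in control replicates 1 to 3 and 54.0, 48.7 and 56.6 CPM with TGF-β. Every treated library was above every control library, and the log2 fold change was 0.54 ± 0.09 (adjusted p = 0.0175). The call was not kept without control replicate 2 or 3 or TGF-β replicate 1 or 3 (adjusted p up to 0.11).

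LTB, the membrane-anchoring subunit of lymphotoxin, had the largest fitted change of the 28. It was at 1.22, 1.31 and 0.565 CPM in control and 3.23, 2.36 and 2.10 CPM with TGF-β. The groups did not overlap, but the log2 fold change of 1.32 ± 0.36 had an adjusted p of 0.109. The authors' deposited table gives LTB a log2 fold change of 1.32 with an adjusted p of 0.0382, and TNFRSF21 one of 0.54 with an adjusted p of 0.000165. DESeq2 (adjusted p = 0.0349) and edgeR with no filter on low counts (adjusted p = 0.00931) called LTB as well. LTB was at most 0.364 CPM in the SW libraries and was not tested there. Its promoter is shown because LTB had the largest fitted change of the 28, though it was not past the threshold. The window (chr6:31582426-31582675, minus strand, RefSeq, GRCh38.p14) was also picked because it holds a motif match. That NF-κB consensus match, which reads on the other strand, is in capitals. AP-1, TCF/LEF and SMAD letters are not in this window.
LTB: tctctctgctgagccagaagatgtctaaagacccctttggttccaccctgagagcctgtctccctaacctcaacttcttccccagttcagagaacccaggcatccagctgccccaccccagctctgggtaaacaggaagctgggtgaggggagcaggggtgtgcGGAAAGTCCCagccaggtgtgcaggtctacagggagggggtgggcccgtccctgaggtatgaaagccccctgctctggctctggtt

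EDAR in PEO4 was at 14.6, 8.05 and 6.78 CPM in control and 17.5, 12.3 and 12.5 CPM with TGF-β. Control replicate 1 lay within the treated values, and the log2 fold change of 0.52 ± 0.27 had an adjusted p of 0.381. Without control replicate 1 it was 0.94 with an adjusted p of 0.0281. EDARADD was at 1.99, 1.80 and 1.13 CPM in control and 1.89, 1.78 and 1.70 CPM with TGF-β (log2 fold change 0.13 ± 0.30, adjusted p = 0.868), so the groups overlapped. EDA was at 7.44, 8.05 and 7.82 CPM in control and 7.01, 7.41 and 8.28 CPM with TGF-β (-0.04 ± 0.14, adjusted p = 0.922).

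Replicate values did not overlap for 9 of the 28 genes, beside 21.5% of all genes tested in PEO4. Higher with TGF-β were TNFRSF21, LTB, TNFRSF12A, TNFRSF18, TNFSF13, TNFRSF10A and LTBR, and lower were TNFRSF14 and TNFSF15. TNFRSF12A was at 148, 103 and 120 CPM in control and 165, 156 and 157 CPM with TGF-β (0.37 ± 0.12, adjusted p = 0.176). LTBR was at 210, 181 and 207 CPM in control and 238, 238 and 221 CPM with TGF-β (0.22 ± 0.09, adjusted p = 0.244). TNFRSF12A passed with no count filter (adjusted p = 0.0137) and without control replicate 1 (log2 fold change 0.53, adjusted p = 0.0166), but neither receptor passed with all libraries and the filter. TNFRSF14, the receptor HVEM, was at 13.2, 11.9 and 15 CPM in control and 10.8, 9.43 and 8.51 CPM with TGF-β (-0.48 ± 0.14, adjusted p = 0.135). TNFRSF1A was at 122, 115 and 112 CPM in control and 121, 119 and 118 CPM with TGF-β (0.04 ± 0.07, adjusted p = 0.85). TNFRSF10B was at 140, 169 and 123 CPM in control and 118, 132 and 121 CPM with TGF-β (-0.22 ± 0.12, adjusted p = 0.394). CD70 was at 40.2, 34.3 and 26.9 CPM in control and 32.0, 34.2 and 24.0 CPM with TGF-β (-0.17 ± 0.17, adjusted p = 0.668). For the last 3 genes the groups overlapped.

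**Figure D5:**
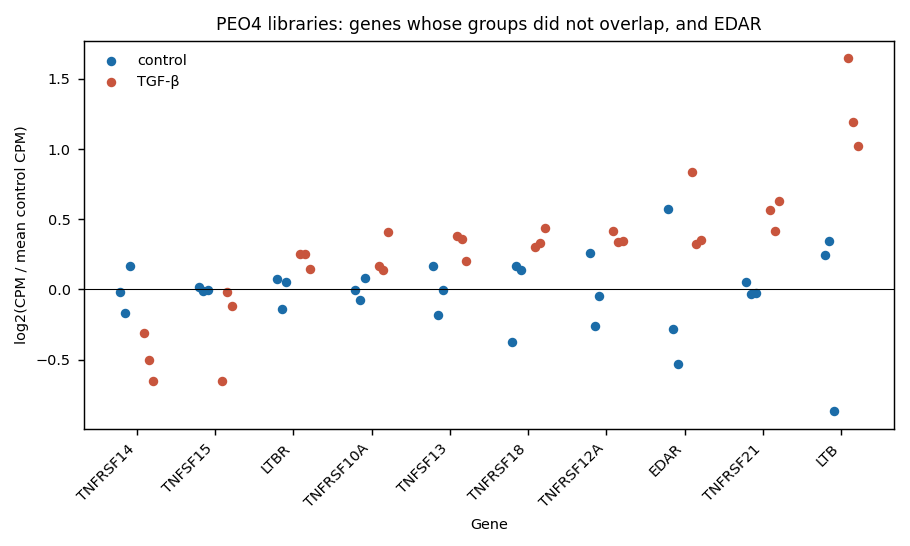
log2 of CPM over the mean control CPM (vertical axis) in each PEO4 control (blue) and TGF-β (red) library for the 9 genes whose groups did not overlap, and for EDAR (horizontal axis, ordered by fitted change). LTB spreads widest and moves farthest. TNFRSF21 has tight groups that are apart, and 1 EDAR control library lies among the treated ones.

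Of the 78 related and downstream genes, 70 were tested in PEO4 and 2 (2.86%) passed, both lower with TGF-β, a share near the 2.26% of all genes tested. BID, which links death receptors to mitochondria, was at 48.0, 51.9 and 53.4 CPM in control and 33.8, 39.3 and 37.1 CPM with TGF-β (log2 fold change -0.47 ± 0.09, adjusted p = 0.0318). BCL3, a nuclear partner of NF-κB, was at 25.0, 30.9 and 34.7 CPM in control and 16.3, 18.8 and 17.5 CPM with TGF-β (-0.78 ± 0.13, adjusted p = 0.0201). Neither gene overlapped between groups. BID kept its call only without control replicate 1, and BCL3 only without control replicate 1 or 3. The adjusted p in the other refits reached 0.149 for BID and 0.113 for BCL3. At an unadjusted p under 0.05 there were 18 of the 70 (25.7%, beside 16.7% of all genes tested). FURIN (0.50 ± 0.12, adjusted p = 0.0715) and RELB (-0.40 ± 0.10, adjusted p = 0.0823), which passed between the SW lines, did not pass in PEO4, and the difference between the comparisons was not tested. The sum of fibroblast markers was 0.596 to 0.929 CPM in control and 1.25 to 1.85 CPM with TGF-β. Summed endothelial markers were at 3.25 to 3.96 CPM in control and 2.03 to 2.74 with TGF-β, and ovarian markers at 4260 to 7490 and 2170 to 3830 CPM. Most of the ovarian sum was MUC16, with means of 5190 CPM in control and 2160 with TGF-β, which did not pass (adjusted p = 0.0701). WT1 was lower (-0.47 ± 0.08, adjusted p = 0.0274), and PAX8 did not pass (0.03 ± 0.09, adjusted p = 0.911). The part of these shifts in the PEO4 results was not tested.

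PEO4 and the SW lines grew in different media and came from different tissues, so their levels were set side by side with no test, in TPM. Of 31 genes tested in at least 1 comparison, 18 (58.1%) had TPM ranges of the 6 PEO4 and 6 SW libraries that did not overlap, 7 higher (22.6%) and 11 lower (35.5%) in PEO4. Over all 22704 genes considered in the same way 41.0% did not overlap, 15.3% higher and 25.6% lower. LTB, EDA2R, TNFRSF11A and CD40 were tested only in PEO4 and TNFRSF4, FASLG and TNFRSF19 only in the SW lines, so the filter in part fixed their separation and the counts support nothing. The genes higher in PEO4 were LTB, EDA2R, TNFRSF1A, LTBR, TNFRSF11A, CD40 and CD70. CD40, the receptor through which antigen-presenting cells are activated, had a mean of 17.4 ± 2.49 TPM in PEO4 control, 0.143 ± 0.0811 in SW480 and 0.243 ± 0.138 in SW620. In SW620 replicate 3 the share of the PEO4 level given above would reach 57.7% of the 8 CD40 counts. TNFRSF1A had 75.7 ± 2.89 TPM in PEO4 control beside 39.8 ± 5.30 in SW480 and 40.8 ± 7.20 in SW620.

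The genes lower in PEO4 were TNFRSF18, TNFRSF4, TNFRSF14, TNFRSF1B, FASLG, EDARADD, TNFSF10, TNFRSF10D, TNFRSF19, NGFR and TNFRSF13C. TNFRSF1B had 0.932 ± 0.262 TPM in PEO4 control and 113 ± 25.0 in SW480. TNFRSF19 had 0.0598 ± 0.0383 TPM in PEO4 control and 28.1 ± 4.53 in SW480. The receptors of TNF thus stood in opposite order in the lines, with TNFRSF1A above TNFRSF1B in PEO4 and below it in SW480 and SW620. EDAR was not among the separated genes, with 5.73 ± 2.30 TPM in PEO4 control between SW620 at 3.79 ± 0.419 and SW480 at 96.4 ± 10.7.

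In all, 24 of the 43 genes were tested in both comparisons and 12 in neither. The latter were TNFRSF9, TNFRSF8, TNFRSF17, TNFRSF13B, TNFRSF6B, TNFSF18, TNFSF4, TNFSF8, TNFSF11, TNFSF13B, TNFSF14 and LTA, and no library held more than 21 counts of any of them. TNFSF18, the ligand of TNFRSF18, had no counts in the 6 SW libraries, which allows up to 3 counts per library. CD27, the receptor of CD70, was at 0.561 to 1.70 CPM over the 12 libraries and passed in neither comparison, and 39.1% of its exon bases are shared with other genes. TNFRSF9, the receptor of TNFSF9, was at 1.17, 0.645 and 0.340 CPM in SW480 and at most 0.309 CPM in SW620. TNFRSF11A, the receptor of RANK ligand, was tested only in PEO4 and had a log2 fold change of -0.19 ± 0.42 (adjusted p = 0.863).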

How the data were processed

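The authors deposited whole-number counts per gene, from reads processed with Trimmomatic 0.36, STAR 2.5.2b, featureCounts (Subread 1.5.2) and DESeq2 on GRCh38, per the submitters' processing notes; annotation and strand use are not given in the sources used here. The authors' deposited tables also hold log2 fold changes with a p-value each, raw and adjusted, named in the file headers and used only where stated. A signal per library in the deposited tables was not used.

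For each comparison the 6 libraries concerned were fitted over all genes with edgeR 4.0.16 (R 4.3.3): filterByExpr, TMM factors, the two-sided quasi-likelihood test and Benjamini-Hochberg adjustment at 0.05. SE is the log2 fold change over the square root of F. Floors cover counting error only. TPM used exon lengths of GENCODE 29, which held 56898 of 57500 genes, and may not be the annotation counted on. With 3 libraries a side the smallest two-sided exact permutation p is 0.1, so the tests rely on the fit across genes. On simulated data with 200 genes changed, the SW design recovered 19% of 2-fold and 71% of 4-fold changes over 20941 genes. The PEO4 design recovered 63% and 88% over 19064 genes. Genes left unchanged were called as well, 11 in the SW design and 19 in the PEO4 design. In the real SW data 30.5% of genes passed, far more than were changed in the simulation. The adjustment depends on that share, so the simulated SW recovery need not hold for the real data.

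The members, roles and lists were chosen with earlier results of these data known. Values in every library are given for members past the threshold whose groups did not overlap, for the 5 members with the highest TPM per group, and for EDAR and EDARADD. Related and downstream genes are named where they passed. LTB, TNFRSF14, EDA, CD40, TNFRSF19, TNFRSF9 and the other genes named beyond this rule were chosen after their values were seen. Alternatives were RLE and upper-quartile scaling, no count filter, at least 10 counts in every library, DESeq2 1.42.0, limma-voom (limma 3.58.1), a test against a 2-fold change, a joint model of all 12 libraries, a block on the replicate number, and each library left out. Their application to single downstream genes was chosen after seeing the data.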

Additional observations from a re-analysis of the deposited data

How the results depend on the processing

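Under the 9 alternatives and 6 refits without a library, no called member of the family changed direction, and 9 of the 17 called between SW620 and SW480 passed in every one that tested them. Against a 2-fold change (glmTreat) 9 of the 17 members and 10 of the 28 downstream genes passed. Without replicates in turn these counts ran from 12 to 16 and from 18 to 32. In PEO4, where 1 member and 2 downstream genes passed, no count filter gave 4 and 8, and DESeq2 gave 2 and 7. With all 12 libraries in edgeR's quasi-likelihood model 0 members and 0 downstream genes passed, with 6 and 10 at an unadjusted p under 0.05. With glmTreat 0 and 0 passed, and 0 and 0 had an unadjusted p under 0.05. Without replicates in turn edgeR called 0 to 3 members and 0 to 6 downstream genes, with at least 3 and 11 at an unadjusted p under 0.05. EDARADD in PEO4 turned from 0.13 to -0.07 without control replicate 3, in a range of -0.07 to 0.31 over the refits (adjusted p 0.669 to 0.951). The cause of these shifts was not tested.

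With the replicate number as a block, 19 members and 44 downstream genes passed between the SW lines, and 7 and 15 in PEO4, among them EDAR (0.57, adjusted p = 0.0138), LTB (0.0142), TNFRSF12A (0.0134) and TNFRSF14 (0.03). Deviations of same-numbered libraries correlated at 0.0159, 0.67 and 0.567 in the SW lines and 0.291, -0.14 and 0.481 in PEO4. Not every library correlated best with its own number, so the numbers were not taken as pairs. Depth limits genes near the floor. In simulated data of the SW design 2-fold changes were often not recovered, but far fewer genes were changed there than passed in the real data. The adjustment depends on that share, so the simulated recovery does not show how many 2-fold changes were missed in the real SW data.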

Other observations

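For the 17 members called between SW620 and SW480, the nearest tested protein-coding gene without overlap was listed on each side. Genes that were not tested or overlapped the member were skipped, and gaps ran from 237 to 326831 bases for genes that are no members. Of 27 such genes, 14 passed (51.9%, beside 30.5% of all genes tested). Of these, 13 went in the direction of the member, for which no share over all genes was taken. For TNFRSF11B these were SAMD12, 301445 bases away, and MAL2, 212834 bases away. SAMD12 (log2 fold change -2.99 ± 0.30, adjusted p = 9.74e-05) and MAL2 (-3.33 ± 0.73, adjusted p = 0.00787) were lower in SW620 too. For TNFSF9, TUBB4A was lower (-3.08 ± 0.35, adjusted p = 0.000216). For CD70, C3 did not pass (-1.0 ± 0.43, adjusted p = 0.112), and the untested TNFSF14 lies between CD70 and C3. Neither CCDC138 nor SH3RF3, the nearest tested genes on either side of EDAR, passed (0.20 ± 0.15 and -0.15 ± 0.18, adjusted p = 0.364 and 0.582). TTLL10 and SDF4, on either side of TNFRSF18 and TNFRSF4, did not pass (adjusted p = 0.329 and 0.536).

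The authors' deposited tables listed 27 of the members in each comparison. Between the SW lines their table put 17 members past an adjusted p of 0.05, all 17 of which also passed here, and in PEO4 it put 2, of which 1 passed here. The sign of the log2 fold change was the same for 27 of 27 members in both.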
